A study of Rattus norvegicus with 15 samples.

Results

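The tRNA-derived fragments (tRFs) of tryptophan and isoleucine tRNAs were followed in the rat left ventricle, and the fragments carrying the anticodon of the mitochondrial tRNA were set beside those of the other anticodons of the same amino acid. Members were taken by name: every row whose name starts with tRF-Trp- or tRF-Ile- was included. No measured value enters this rule, but it was set with earlier results of these data known. This gave 36 of the 714 tRNA-derived small RNAs (tsRNAs) listed. Of the 23 tryptophan tRFs, 16 had the anticodon TCA and 7 had CCA. Of the 13 isoleucine tRFs, 5 had GAT, 7 had AAT and 1 had TAT. All 36 had at least 1 CPM (reads per 1000000 of the library total) in at least 5 libraries, the minimum for testing.

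The 15 libraries came from left ventricle of Sprague-Dawley rats, with 5 numbered rats in each of 3 groups. Control rats were untreated. Rats of the isoproterenol group received isoproterenol, a beta-adrenergic agonist that overstimulates the heart and was the means of producing ischemia. Rats of the restricted group were put on caloric restriction before the same drug. Restriction was not given without isoproterenol, so its own effect and an effect on the drug's action cannot be told apart. The table listed tsRNAs only, so the labelled tissue could not be checked against marker genes. In whole-tissue RNA such as this, fewer cells of a type and less of an RNA per cell cannot be told apart.

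Cells of an animal translate with separate sets of tRNAs, one encoded in the nucleus and used in the cytosol, the other encoded in mitochondrial DNA and used inside mitochondria, which are densely packed in heart muscle. The mitochondrial code reads UGA, a stop codon in the cytosol, as tryptophan. Mitochondrial tryptophan tRNA accordingly has the anticodon UCA (TCA as DNA), whereas the nuclear tryptophan tRNA has CCA. Mitochondrial isoleucine tRNA has the anticodon GAU (GAT), and nuclear isoleucine tRNAs mostly carry AAU (AAT, its first base modified to inosine) or UAU (TAT). The names give an anticodon and not a genome. A fragment of a nuclear copy of a mitochondrial tRNA would carry the same name, and the 2 sources cannot be told apart here. Among 766 tRNA genes named in the RefSeq table of the rat assembly GRCr8, which lists 0 genes on a mitochondrial chromosome, 7 were tryptophan CCA, 9 isoleucine AAU and 3 isoleucine UAU, and 0 each were tryptophan UCA and isoleucine GAU. Fragment sequences were not used here, so members of 1 anticodon may overlap in sequence or share reads, and each is uncertain as a separate species.

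Library totals, by which the authors divided, ran from 106082 to 1128887 reads, so 1 read was worth 0.886 to 9.43 CPM. A level of 3 reads, taken as the floor of detection, was 2.66 CPM in control replicate 4 and 28.3 CPM in isoproterenol replicate 3. The listed tsRNAs held 24.2% to 35.7% of the total in control and 37.0% to 78.7% in the treated groups, with no overlap. The median tsRNA had 4 to 9 reads in a library although totals differed widely (5 reads in control replicate 4, with 1128887, and 5 in control replicate 1, with 273178). The sources used do not say if reads were limited, sampled or collapsed before counting, any of which would change what CPM, the recovered reads and their intervals stand for. On the log2(CPM + 1) scale of the tests the median tsRNA was 1.26 higher in the isoproterenol group than in control and 1.60 higher in the restricted group than in control. Both shifts were smaller after median-of-ratios scaling, at 0.15 and 0.24. Called rises are therefore also given as the difference from these medians.

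The tryptophan TCA fragments were among the most abundant tsRNAs of the control ventricle and were far lower in both treated groups. Their summed level was 15376 CPM ± 3421 (SD, n = 5) in control, 2650 ± 1552 in isoproterenol rats and 3576 ± 1278 in the restricted group. The lowest control library, at 10454 CPM, was above the highest treated library, at 5697 CPM. Level by level, 6 of the 16 fragments were lower in every isoproterenol library than in any control library, and 1 was higher in every one, where 8.49% and 19.0% of all tsRNAs tested were separated in these directions. Of the 16 fragments, 9 fell and 2 rose in the isoproterenol group against control (limma on log2(CPM + 1), Benjamini-Hochberg adjusted p under 0.05 over the 707 tsRNAs tested, two-sided). Over all 707 the same test called 12.4% lower and 35.5% higher, 47.9% in all. The median change of the 16 was -2.14, beside 1.26 over all tsRNAs tested. Against control the restricted group had 7 of the 16 lower and 2 higher, with a median of -1.51 beside 1.60 over all, where 10.7% of tsRNAs were called lower, 47.7% higher and 58.4% in all. For restricted against control, 6 fragments were separated downward (9.19% of all tsRNAs) and 1 upward (31.1%). After median-of-ratios scaling 10 TCA fragments were lower and 0 higher with isoproterenol (median -3.38), and 10 were lower and 1 higher in restricted rats (median -3.13). Both comparisons share the control libraries.

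tRF-Trp-TCA-001 ranked 6th of all 714 tsRNAs by mean level in control, 90th in isoproterenol rats and 74th in the restricted group. Control replicates 1 to 5 had 6095, 7138, 6582, 5125 and 4791 CPM. Isoproterenol replicates 1 to 5 had 271, 922, 245, 265 and 548 CPM, and restricted replicates 1 to 5 had 501, 1049, 347, 546 and 319 CPM. Every treated library was far below every control library, and the treated groups overlapped. The change was -3.91 ± 0.50 (SE) in the isoproterenol group (limma adjusted p = 2.71e-08), a 15.1-fold lower level on the CPM + 1 scale. It was -3.55 ± 0.50 in the restricted group (limma adjusted p = 3.06e-07), an 11.7-fold lower level.

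tRF-Trp-TCA-003 was the second fragment of this set in control by mean level. It was the highest in 9 of 10 treated libraries and tied for the highest in the other. It had 6080, 4950, 4998, 1814 and 3821 CPM in control replicates 1 to 5. It had 323, 1766, 537, 417 and 1605 CPM in isoproterenol rats and 1697, 2573, 982, 1024 and 1444 CPM in the restricted group. The isoproterenol group lay below the control group throughout, whereas the highest restricted library exceeded the lowest control, replicate 4. The change was -2.46 ± 0.52 with isoproterenol (limma adjusted p = 0.000173) and -1.47 ± 0.52 in the restricted group (limma adjusted p = 0.0148).

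tRF-Trp-TCA-002 had 2277, 2407, 2208, 1619 and 1869 CPM in control, 323, 680, 236, 347 and 882 CPM in isoproterenol rats, and 385, 679, 234, 308 and 261 CPM in the restricted group. Neither treated group overlapped with control. It fell by 2.23 with isoproterenol (limma adjusted p = 0.000369) and by 2.57 in the restricted group (limma adjusted p = 7.98e-05).

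Less abundant members of the TCA set were also lower in the treated groups. tRF-Trp-TCA-004 averaged 743 CPM ± 131 (SD, n = 5) in control, 169 ± 62.6 in isoproterenol rats and 194 ± 65.9 in the restricted group. tRF-Trp-TCA-009 averaged 1412 ± 526, 293 ± 189 and 480 ± 193 CPM in the same order of groups. tRF-Trp-TCA-008, which the naming rule gave in the restricted comparison only, averaged 702 ± 91.4, 175 ± 80.0 and 190 ± 101 CPM. All 3 fell in both comparisons, by 2.19, 2.37 and 2.09 with isoproterenol and by 1.99, 1.55 and 2.07 in the restricted group (limma adjusted p of 0.0120 or less in each). For tRF-Trp-TCA-009 control replicate 4, at 564 CPM, overlapped with both treated groups. The treated ranges of tRF-Trp-TCA-004 and tRF-Trp-TCA-008 lay below control throughout.

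A scarcer set was read in all 5 control libraries and in 1 isoproterenol library. tRF-Trp-TCA-005 had 36.6, 49.5, 44.5, 19.5 and 34.1 CPM in control, 0 in isoproterenol replicates 1 to 4 and 36.9 CPM in replicate 5, and 24.4, 5.03, 4.50, 25.3 and 4.50 CPM in the restricted group. tRF-Trp-TCA-006 and tRF-Trp-TCA-010 were also at 0 in isoproterenol replicates 1 to 4 and at 17.5 and 7.77 CPM in replicate 5, which has the largest total of that group. Their changes with isoproterenol were -4.13 for tRF-Trp-TCA-005, -3.59 for tRF-Trp-TCA-006 and -3.92 for tRF-Trp-TCA-010 (limma adjusted p of 0.000602 or less). Without isoproterenol replicate 5 they were -5.18, -4.43 and -4.55, and by edgeR on the recovered reads with the authors' totals they were -1.78, -1.93 and -3.10. The floors of isoproterenol replicates 2 and 3 were 23.4 and 28.3 CPM, so levels as low as some of the control libraries were not detectable there. Against control the restricted group had tRF-Trp-TCA-010 called (-1.96, limma adjusted p = 0.0485), while tRF-Trp-TCA-006 (-1.91, adjusted p = 0.0501) and tRF-Trp-TCA-005 (-1.80, adjusted p = 0.0695) were not. The tRF-Trp-TCA-010 call was lost without control replicate 1, 2, 3 or 4 or restricted replicate 3 or 4, with changes from -2.10 to -1.31. It was also lost with a pseudocount of 0.5 (-2.19, limma adjusted p = 0.0708). With the library total as a covariate it was lost too (-1.48, limma adjusted p = 0.159).

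Of the TCA fragments, 2 went the other way. tRF-Trp-TCA-019 had 29.3, 11.8, 22.3, 1.77 and 10.5 CPM in control, 52.0, 117, 28.3, 54.8 and 33.0 CPM in isoproterenol rats, and 67.1, 35.2, 230, 97.7 and 216 CPM in the restricted group. Every restricted library was above every control library, while 1 isoproterenol library fell within the control range. The rise was 3.08 ± 0.68 in the restricted group, or 1.48 above the median tsRNA (limma adjusted p = 0.000319). With isoproterenol alone it was 2.05, or 0.79 above the median tsRNA (limma adjusted p = 0.0122). The isoproterenol call was lost without control replicate 4 (1.51, adjusted p = 0.0589) and after median-of-ratios scaling (0.94). The restricted call was kept in all 27 alternatives.

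tRF-Trp-TCA-017 averaged 5.11 CPM ± 3.36 (SD, n = 5) in control, 25.8 ± 9.29 in isoproterenol rats and 19.0 ± 10.9 in the restricted group. With isoproterenol it rose by 2.20, or 0.94 above the median tsRNA (limma adjusted p = 0.0111), and every isoproterenol library was above every control library. After median-of-ratios scaling the change was 1.10 and the call was lost. For restricted against control the rise was 1.62 (limma adjusted p = 0.0496), 0.02 above the median tsRNA, and 10 of 27 alternatives kept it. That call lies outside the naming rule and is given after its value was seen. The 5 TCA fragments called in neither comparison, numbered 007, 014, 015, 016 and 018, averaged between 1.55 and 41.8 CPM in each group.

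**Figure D1:**
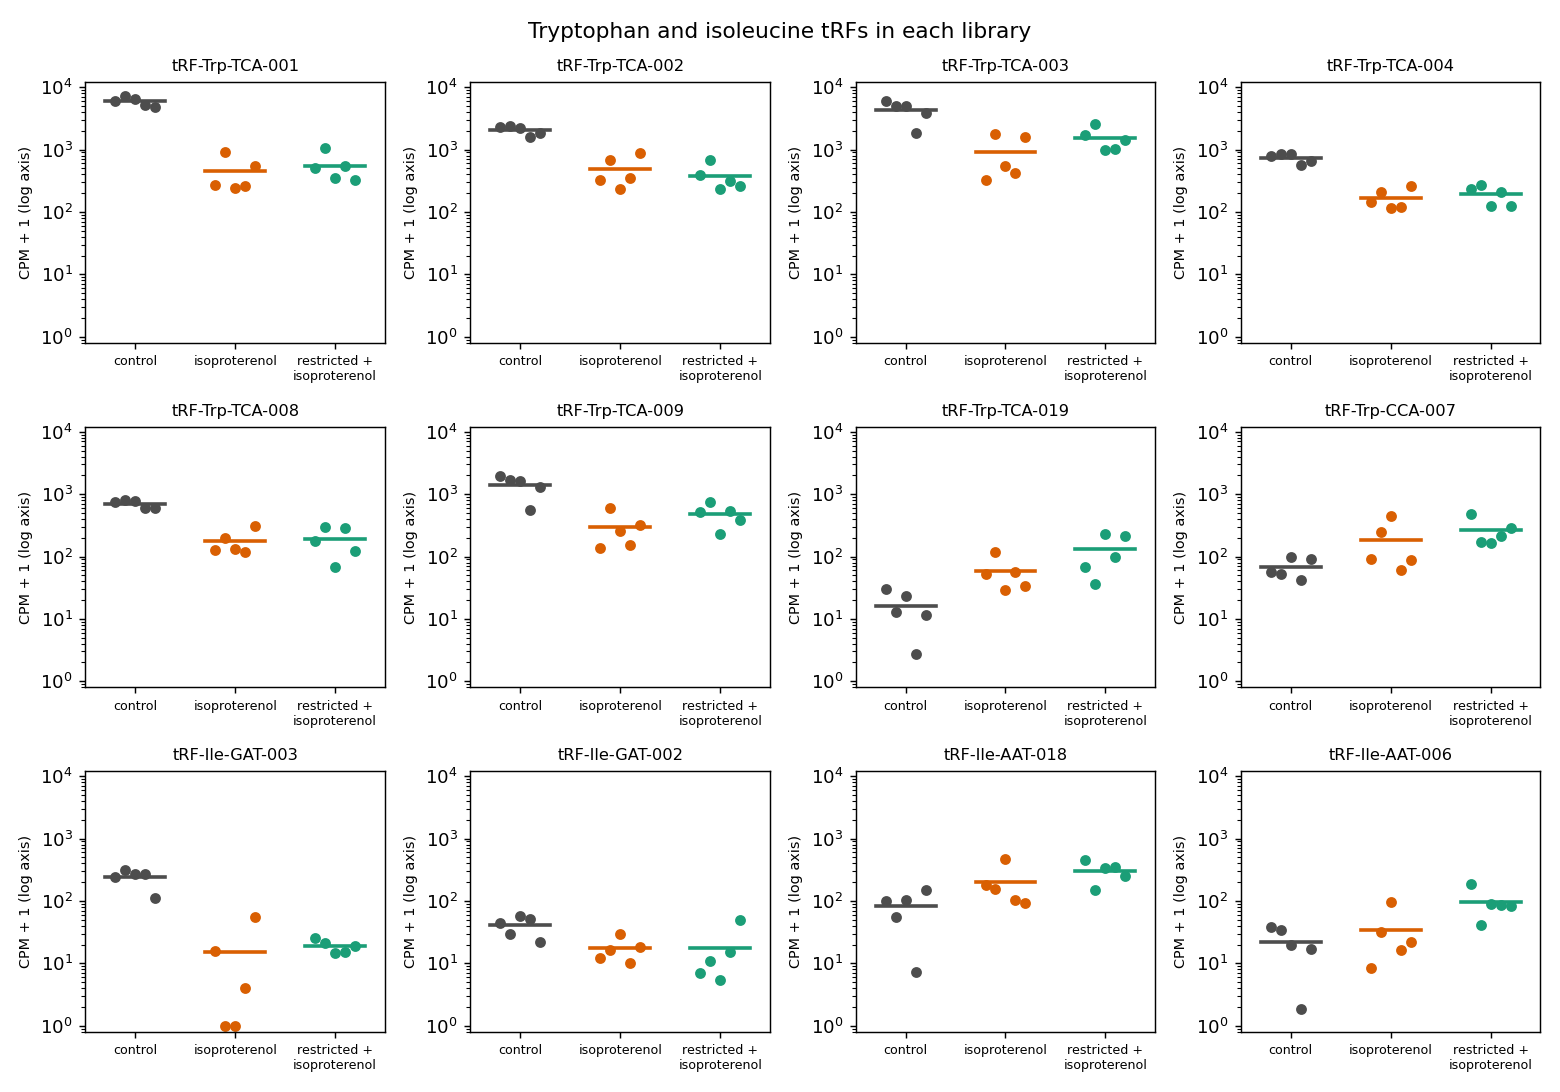
Level of 12 tryptophan and isoleucine tRFs in each of the 15 libraries, as CPM + 1 on a log axis, with a point per library and a line at the group mean. Control libraries of tRF-Trp-TCA-001 sit between 4791 and 7138 CPM, above all treated libraries, whereas the group means of tRF-Trp-CCA-007 are 66.6 CPM in control, 186 with isoproterenol and 261 in the restricted group.

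Composition within the TCA set also differed between the groups. tRF-Trp-TCA-001 made up 39.4% ± 5.81 (SD, n = 5) of its reads in control, 17.0% ± 2.87 in isoproterenol rats and 15% ± 3.20 in the restricted group. tRF-Trp-TCA-003 made up 27.3% ± 6.03, 32.2% ± 7.06 and 42.7% ± 5.77 in the same order. The ratio of tRF-Trp-TCA-003 to tRF-Trp-TCA-001 was 0.998, 0.694, 0.759, 0.354 and 0.798 in control replicates 1 to 5. It was 1.19, 1.92, 2.19, 1.57 and 2.93 in isoproterenol rats and 3.39, 2.45, 2.83, 1.87 and 4.52 in the restricted group. The ratio was thus under 1 in all 5 control libraries and over 1 in all 10 treated libraries, and the scaling of a library does not enter it.

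tRF-Trp-TCA-001 was the highest TCA fragment in 5 of 5 control libraries. tRF-Trp-TCA-003 was the highest in 5 of 5 restricted and 4 of 5 isoproterenol libraries, and was level with tRF-Trp-TCA-002 in isoproterenol replicate 1, at 323 CPM each. The 6 abundant fragments 001, 002, 003, 004, 008 and 009 together held 98.4% to 99.1% of the TCA reads in control, 92.5% to 95.9% in isoproterenol rats and 83.2% to 98.6% in the restricted group. No p is given for these ratios and shares, since the members were chosen with results of these data known.

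**Figure D2:**
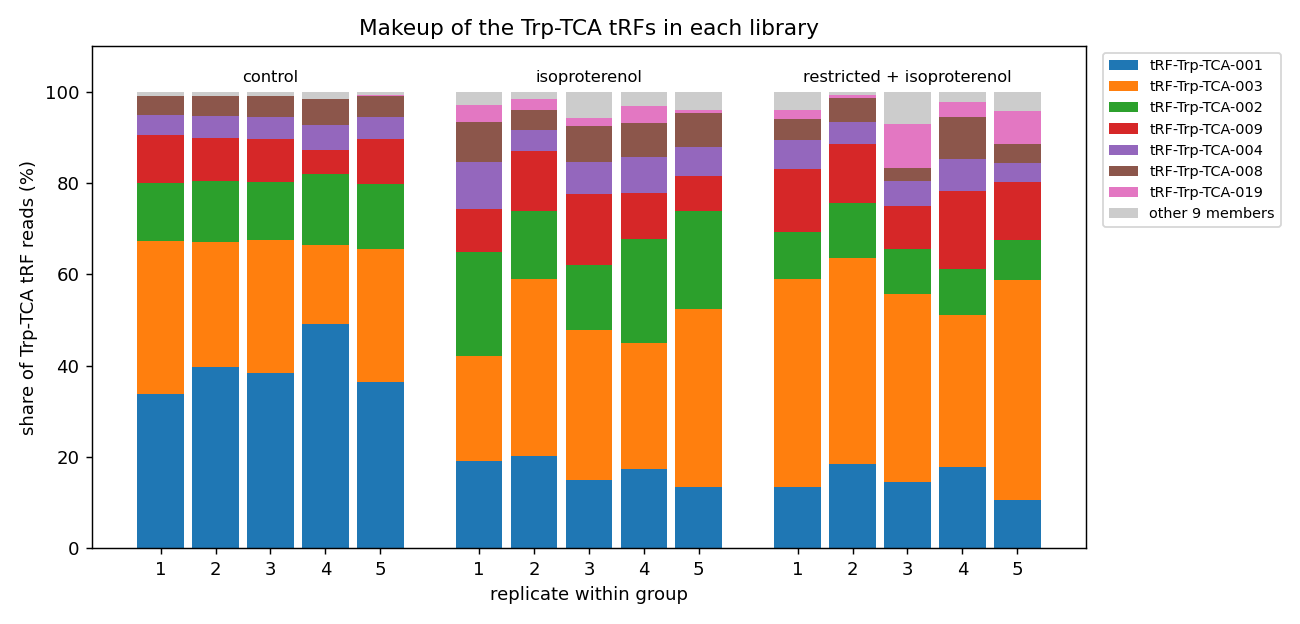
Share of the Trp-TCA tRF reads of each library, in percent, held by 7 fragments and by the other 9 members, as stacked bars for replicates 1 to 5 of each group. The tRF-Trp-TCA-001 segment is 33.7% to 49.0% in control, 13.3% to 20.2% in isoproterenol rats and 10.6% to 18.4% in the restricted group.

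The tryptophan CCA fragments, of the anticodon of the nuclear tRNA, included none that was called lower. Of 7 tested, 1 rose with isoproterenol, where 35.5% of all tsRNAs did, with a median change of 1.12 beside 1.26 over all. The restricted group had 4 of 7 higher, where 47.7% of all tsRNAs were, with a median of 1.91 beside 1.60. Neither count stands apart from the whole table. After median-of-ratios scaling 0 of 7 were called in either comparison, with medians of -0.04 and 0.43, so the direction of the first median turned. That scaling called 35.8% of all tsRNAs in each comparison, with 16.1% higher for isoproterenol and 15.1% higher for the restricted group. The shares of all tsRNAs called higher for isoproterenol were 14.0% with libraries scaled to the same listed total, 15.3% by edgeR with TMM factors, 16.6% by DESeq2 and 23.2% with the library total as a covariate. For the restricted group they were 28.0%, 14.1%, 15.9% and 36.9% in that order, with 42.3% (listed total) and 47.8% (covariate) called in all, and 21.6% (TMM) and 22.8% (DESeq2) called lower.

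tRF-Trp-CCA-007, the most abundant of them, had 54.9, 51.9, 96.5, 40.7 and 89.1 CPM in control, 89.1, 242, 452, 60.9 and 85.5 CPM in isoproterenol rats, and 476, 169, 162, 210 and 288 CPM in the restricted group. The isoproterenol group overlapped with control (1.12, limma adjusted p = 0.104), and the restricted group lay wholly above control. The restricted rise was 1.91 ± 0.59 (limma adjusted p = 0.00555), 0.31 above the median tsRNA, and 0.30 after median-of-ratios scaling, where it was not called.

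tRF-Trp-CCA-019 had 32.9, 37.7, 40.8, 5.31 and 44.6 CPM in control, 29.7, 93.8, 160, 36.5 and 11.7 CPM in isoproterenol rats, and 147, 50.3, 131, 170 and 94.4 CPM in the restricted group. Its restricted rise of 2.00 (limma adjusted p = 0.0107), 0.40 above the median tsRNA, was 1.47 without control replicate 4, with an adjusted p of 0.0514. tRF-Trp-CCA-016 averaged 15 CPM ± 12.2 (SD, n = 5) in control, 45.2 ± 45.0 in isoproterenol rats and 61.5 ± 16.7 in the restricted group, and rose in the restricted group (2.33, or 0.73 above the median tsRNA, limma adjusted p = 0.00428), while the isoproterenol change of 1.48 was not called (adjusted p = 0.0706). For both, all restricted libraries were above all control libraries.

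tRF-Trp-CCA-017 averaged 2.77 CPM ± 1.88 in control, 16.9 ± 12.5 in isoproterenol rats and 23.1 ± 7.80 in the restricted group (SD, n = 5). It was the CCA fragment that rose in both comparisons, by 2.11 (limma adjusted p = 0.0216) and 2.85 (limma adjusted p = 0.00203), or 0.85 and 1.25 above the median tsRNA. Its 5 control libraries held 6 reads in all. The isoproterenol call was lost without control replicate 5 (1.69), isoproterenol replicate 2 (1.80) or isoproterenol replicate 3 (1.84). The restricted call was kept with libraries scaled to the same listed total (2.27, adjusted p = 0.0302) and lost after median-of-ratios scaling.

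The isoleucine GAT fragments, of the mitochondrial anticodon, had a summed level of 308 CPM ± 86.5 (SD, n = 5) in control, 52.7 ± 20.9 in isoproterenol rats and 78.3 ± 28.3 in the restricted group. The lowest control library, at 155 CPM, was above the highest treated library, at 110 CPM. Most of the control reads were in 1 fragment, tRF-Ile-GAT-003 (616 reads of the control libraries together). Of 5 tested, 2 fell and 0 rose with isoproterenol, where 12.4% of all tsRNAs fell, with a median of -1.86 beside 1.26 over all. For restricted against control 2 fell and 1 rose, where 10.7% of all tsRNAs fell and 47.7% rose, with a median of -1.59 beside 1.60. With 5 members each of these counts rests on 1 or 2 fragments. Of the 2 falls with isoproterenol, 1 is tRF-Ile-GAT-012, which passed the minimum for testing only through the control group, so nothing is read from it. After median-of-ratios scaling 4 of 5 were lower in each comparison. Under that scaling 19.7% of all tsRNAs were called lower with isoproterenol and 20.7% in the restricted group.

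tRF-Ile-GAT-003 had 238, 309, 267, 270 and 113 CPM in control. It had 14.8, 0, 0, 3.04 and 54.4 CPM in the isoproterenol group, of which replicates 2 and 3 have the floors of 23.4 and 28.3 CPM. It had 24.4, 20.1, 13.5, 14.5 and 18.0 CPM in the restricted group. No treated library reached the lowest control library. The fall was 5.47 ± 0.78 (SE) with isoproterenol (limma adjusted p = 2.3e-07) and 3.61 ± 0.78 in the restricted group (limma adjusted p = 0.000226). Libraries at 0 weigh in these values: the isoproterenol change was -4.88 without isoproterenol replicate 2 or 3, -6.33 without isoproterenol replicate 5 and -3.72 by edgeR on the recovered reads. By edgeR the restricted change was -3.71. By rank of mean level the fragment went from 82nd in control to 476th and 463rd in the treated groups.

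tRF-Ile-GAT-002 had 43.9, 28.3, 55.7, 49.6 and 21 CPM in control, 11.1, 15.6, 28.3, 9.13 and 17.5 CPM in isoproterenol rats, and 6.10, 10.1, 4.50, 14.5 and 49.5 CPM in the restricted group. Both treated groups overlapped with control, in the restricted group through replicate 5. The restricted change of -1.59 was called (limma adjusted p = 0.0479) and the isoproterenol change of -1.25 was not (adjusted p = 0.130). The restricted call was kept in 14 of 27 alternatives. It was lost without any 1 of control replicates 1 to 4, restricted replicates 1 to 4 or isoproterenol replicates 1 and 4, with changes from -1.68 to -1.28.

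tRF-Ile-GAT-012 was read in all 5 control libraries, 19 reads in all, and in isoproterenol replicate 5 alone, with 2 reads. The pooled ratio of isoproterenol to control was 0.194, with a 95% counting interval of 0.0219 to 0.803. In the restricted group it was read in 2 libraries, so it passed the minimum for testing only through the control group. limma called it lower with isoproterenol, at -2.78, but nothing is read from this call. The change was -2.46 without control replicate 1 and -2.45 without control replicate 3, neither of them called.

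tRF-Ile-GAT-004 moved the other way, with 7.32, 4.71, 0, 7.97 and 7.86 CPM in control, 14.8, 15.6, 37.7, 18.3 and 1.94 CPM in isoproterenol rats, and 67.1, 15.1, 49.5, 7.24 and 22.5 CPM in the restricted group. The restricted rise of 2.29 (limma adjusted p = 0.0137), 0.69 above the median tsRNA, was 1.70 without control replicate 3 and 1.94 without restricted replicate 1, and was not called without either or after median-of-ratios scaling (0.85). The tiRNA of this anticodon, a fragment cut in the anticodon loop and no member here, averaged 68.2 CPM ± 25.8 in control, 44.3 ± 49.9 in isoproterenol rats and 43.5 ± 15.5 in the restricted group (SD, n = 5). tiRNA-Ile-GAT-001 was called in no comparison (limma adjusted p of 0.164 for isoproterenol and 0.400 for the restricted group, each against control).

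The isoleucine AAT fragments, of the nuclear anticodon, numbered 5 of 7 called higher and 0 lower in the restricted group against control, where 47.7% of all tsRNAs were called higher, with a median of 2.15 beside 1.60. With isoproterenol 2 were called higher and 0 lower, where 35.5% of all tsRNAs were higher, with a median of 0.71 beside 1.26. Of these 2, 1 is tRF-Ile-AAT-027, which passed the minimum for testing only through the isoproterenol group, so nothing is read from this count. After median-of-ratios scaling 0 were called in the restricted group and 1, again tRF-Ile-AAT-027, with isoproterenol, with medians of 0.74 and -0.34, so the second median turned direction.

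tRF-Ile-AAT-018 had 98.8, 54.2, 104, 6.20 and 147 CPM in control, 178, 156, 471, 103 and 91.3 CPM in isoproterenol rats, and 452, 151, 333, 347 and 252 CPM in the restricted group. Restricted libraries were all above control, and isoproterenol libraries overlapped with control. The rise was 2.34 in the restricted group (limma adjusted p = 0.00225), 0.74 above the median tsRNA and 1.59 without control replicate 4. With isoproterenol it was 1.54, or 0.29 above the median tsRNA (limma adjusted p = 0.0428), a call kept in 13 of 27 alternatives. It was 0.79 without control replicate 4, and was also lost without control replicate 2, isoproterenol replicate 1, 2 or 3 or restricted replicate 3 or 4, with changes from 1.17 to 1.56.

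tRF-Ile-AAT-006 had 36.6, 33.0, 18.6, 0.886 and 15.7 CPM in control, 7.42, 31.3, 94.3, 15.2 and 21.4 CPM in isoproterenol rats, and 183, 40.2, 90.1, 86.9 and 80.9 CPM in the restricted group. The restricted libraries were above all control libraries, by 2.52, or 0.92 above the median tsRNA (limma adjusted p = 0.00374), and by 1.77 without control replicate 4. With isoproterenol the change was 0.71 (adjusted p = 0.417), and -0.34 after median-of-ratios scaling.

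tRF-Ile-AAT-021 averaged 26.7 CPM ± 21.2 in control, 49.0 ± 38.1 in isoproterenol rats and 49.2 ± 13.8 in the restricted group, with overlapping ranges and no call. tRF-Ile-AAT-002, tRF-Ile-AAT-003 and tRF-Ile-AAT-007 rose in the restricted group by 2.28, 2.10 and 2.15 (limma adjusted p of 0.0261, 0.0148 and 0.0197), which were 0.68, 0.50 and 0.55 above the median tsRNA. Without control replicate 4 tRF-Ile-AAT-003 was at 1.73 and tRF-Ile-AAT-007 at 1.59, both no longer called. tRF-Ile-AAT-002 was no longer called without control replicate 1 (1.85) or restricted replicate 3 or 5 (2.13 each).

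tRF-Ile-AAT-027 had 0 reads in all 5 control libraries and was read in all 5 isoproterenol libraries, at 3.71, 7.81, 28.3, 3.04 and 13.6 CPM, 13 reads in all. It passed the minimum for testing only through that group. Pooled over the group and against a floor of 3 reads, it was at least 7.97-fold higher than control, given as a description with no test. The restricted group held 2 reads in all. tRF-Ile-TAT-002, the only fragment of its anticodon, had 0, 2.36, 3.71, 0.886 and 0 CPM in control, 7.42, 15.6, 9.43, 3.04 and 0 CPM in isoproterenol rats, and 24.4, 5.03, 13.5, 3.62 and 18.0 CPM in the restricted group. From 3 reads in control and 14 in the restricted group the pooled ratio was 9.02, with a 95% counting interval of 2.52 to 48.9. The restricted rise was 2.54, or 0.94 above the median tsRNA (limma adjusted p = 0.0133), and was not called after median-of-ratios scaling (1.38).

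**Figure D3:**
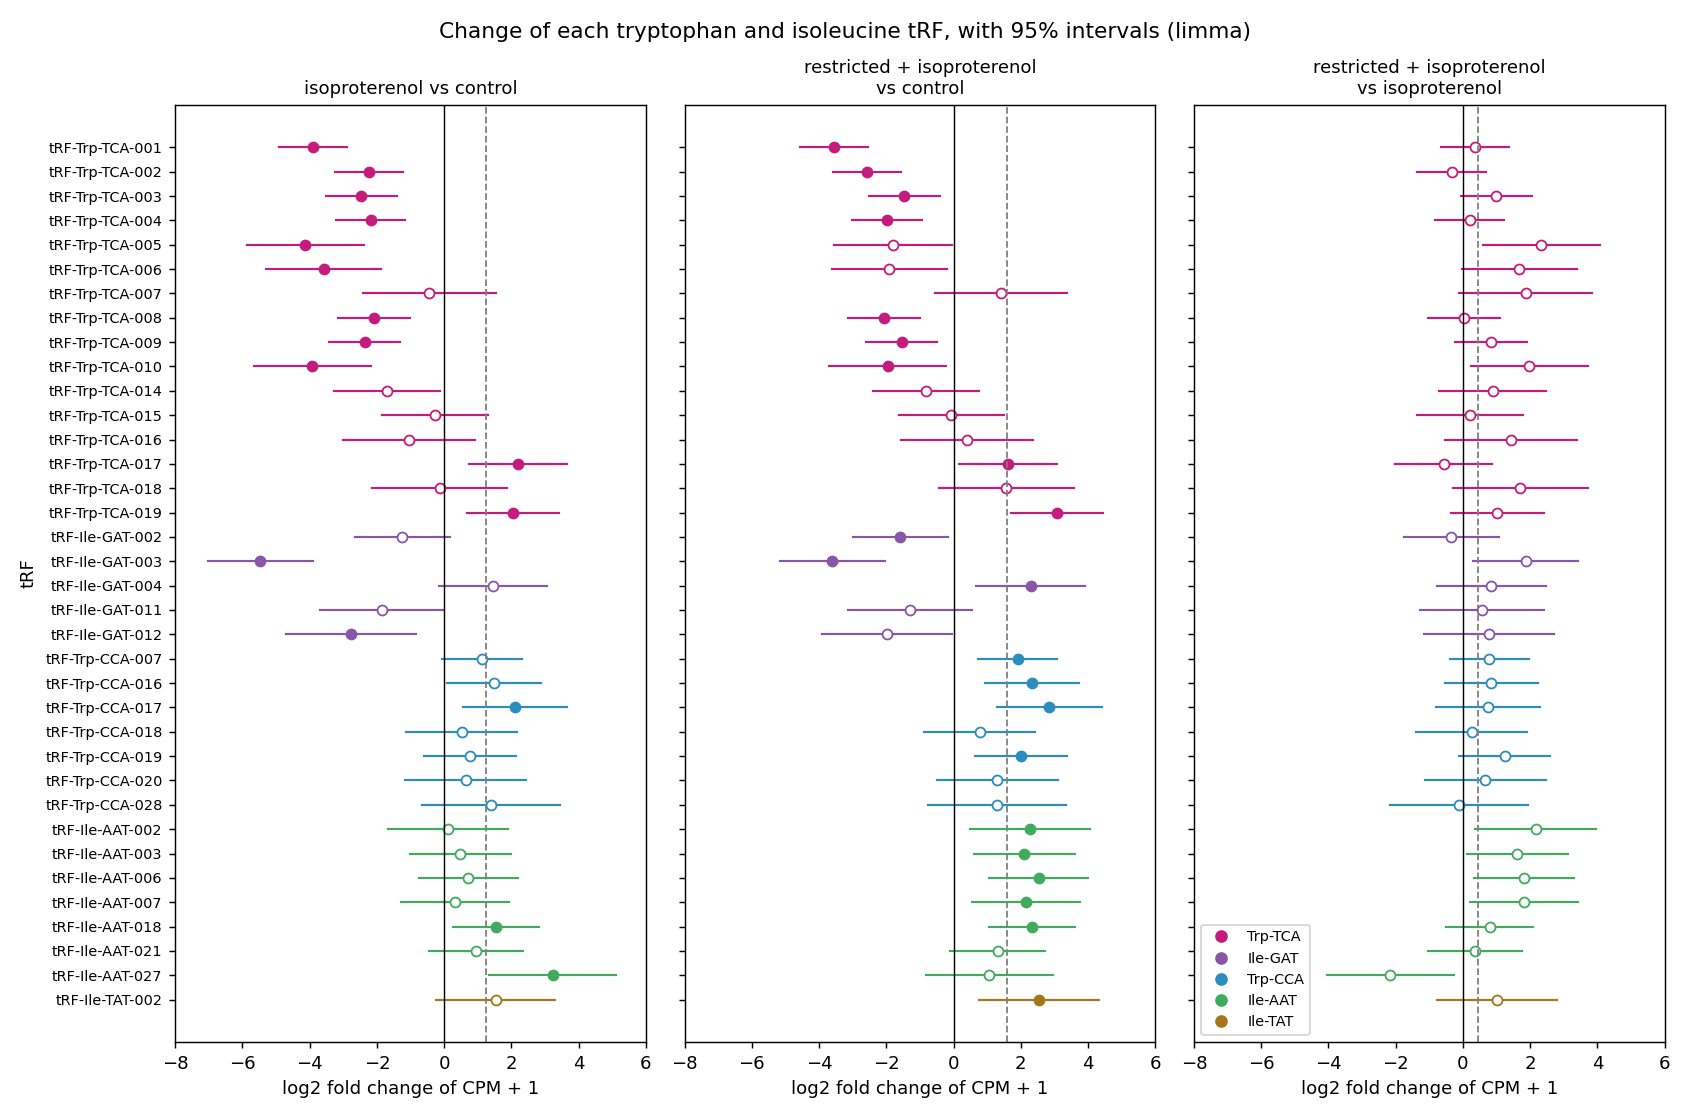
Change of each of the 36 tRFs in the 3 comparisons, as log2 fold change of CPM + 1 with 95% intervals from limma, coloured by anticodon. Filled points passed an adjusted p of 0.05, the solid line is 0 and the dashed line is the median of all tsRNAs tested (1.26, 1.60 and 0.44 from left to right).

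Shares within an amino acid put these changes on a scale that library totals do not enter as a divisor. Fragments with the mitochondrial anticodon held a smaller share of their amino acid's tRF reads in every treated library than in any control library. TCA fragments held 99.4%, 99.4%, 98.9%, 99.5% and 98.7% of the tryptophan tRF reads in control replicates 1 to 5. They held 89.6%, 90.5%, 67.2%, 91.7% and 97.0% in isoproterenol rats and 82.3%, 95%, 86.0%, 86.5% and 84.5% in the restricted group. The group means were 99.2% ± 0.341, 87.2% ± 11.6 and 86.9% ± 4.82 (SD, n = 5). As a ratio of TCA to CCA reads, the group medians were 154, 9.57 and 6.15.

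GAT fragments held 61.1%, 73.3%, 63.3%, 95% and 42.4% of the isoleucine tRF reads in control replicates 1 to 5. They held 16.2%, 8.0%, 7.53%, 18.8% and 34.1% in isoproterenol rats and 11.2%, 17.2%, 14.0%, 5.62% and 15.2% in the restricted group. The group means were 67.0% ± 19.2, 16.9% ± 10.8 and 12.6% ± 4.48 (SD, n = 5). Control libraries were all above the treated libraries, and the treated groups overlapped. Without the most abundant tryptophan tRF, tRF-Trp-TCA-001, the tryptophan means were 98.6%, 85.2% and 85%, in the same order. The most abundant isoleucine tRF, tRF-Ile-AAT-018, has another anticodon, so leaving it out can only raise the GAT share. Without it the means were 80.5%, 33.1% and 23.4%. In control replicate 5 tRF-Ile-GAT-003, the main GAT fragment, held 43 of the 59 GAT reads, beside 80 reads of the other isoleucine anticodons. Isoproterenol replicate 4 held 12 GAT reads beside 52 of the others. There tRF-Ile-GAT-003 was at 3.04 CPM, the worth of 1 read. With this fragment left out, the share of control replicate 5 is below that of isoproterenol replicate 4. The isoproterenol and control ranges of the GAT share therefore overlap without it. Shares without it were not computed for the other libraries.

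The reads behind these shares were few for the nuclear anticodons and, in the treated libraries, fewer still for isoleucine GAT. GAT fragments had 59 to 379 reads in a control library, 4 to 42 in an isoproterenol library and 10 to 26 in a restricted library. CCA fragments had 32 to 66 reads in a control library, 44 to 85 in an isoproterenol library and 86 to 132 in a restricted library. Isoleucine tRFs other than GAT had 20 to 80, 46 to 86 and 112 to 168 reads in the same order. The 95% Wilson interval was widest in isoproterenol replicate 3 for tryptophan, from 61.2% to 72.6%, and in isoproterenol replicate 4 for isoleucine, from 11.1% to 30.0%. For isoleucine the intervals of the closest control and treated libraries overlapped. They were 34.5% to 50.8% in control replicate 5 and 26.4% to 42.9% in isoproterenol replicate 5. All these intervals cover counting error only.

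The library with the largest total of each group, control replicate 4, isoproterenol replicate 5 and restricted replicate 2, had the highest share of its group for both amino acids. Below it, the isoleucine shares of the isoproterenol group followed the totals throughout. They ran from 18.8% in replicate 4 (328607 reads) to 7.53% in replicate 3 (106082 reads). Tryptophan shares of the treated groups did so except between isoproterenol replicates 1 and 2 and restricted replicates 3 and 5. Control tryptophan shares followed the totals apart from replicate 5, and restricted isoleucine shares apart from replicate 4. Control isoleucine shares departed from the order of the totals in replicate 5 and between replicates 1 and 3. Control replicate 5, with 381563 reads, had the lowest share of control for both amino acids. Restricted replicate 4, with 276329 reads, the second largest total of its group, had the lowest isoleucine share. The part of depth in the shares was not tested. Among libraries of 260000 to 280000 reads, control replicates 1 and 3 had tryptophan shares of 99.4% and 98.9%, isoproterenol replicate 1 had 89.6% and restricted replicate 4 had 86.5%. Their isoleucine shares were 61.1% and 63.3% in control, 16.2% with isoproterenol and 5.62% in the restricted library.

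**Figure D4:**
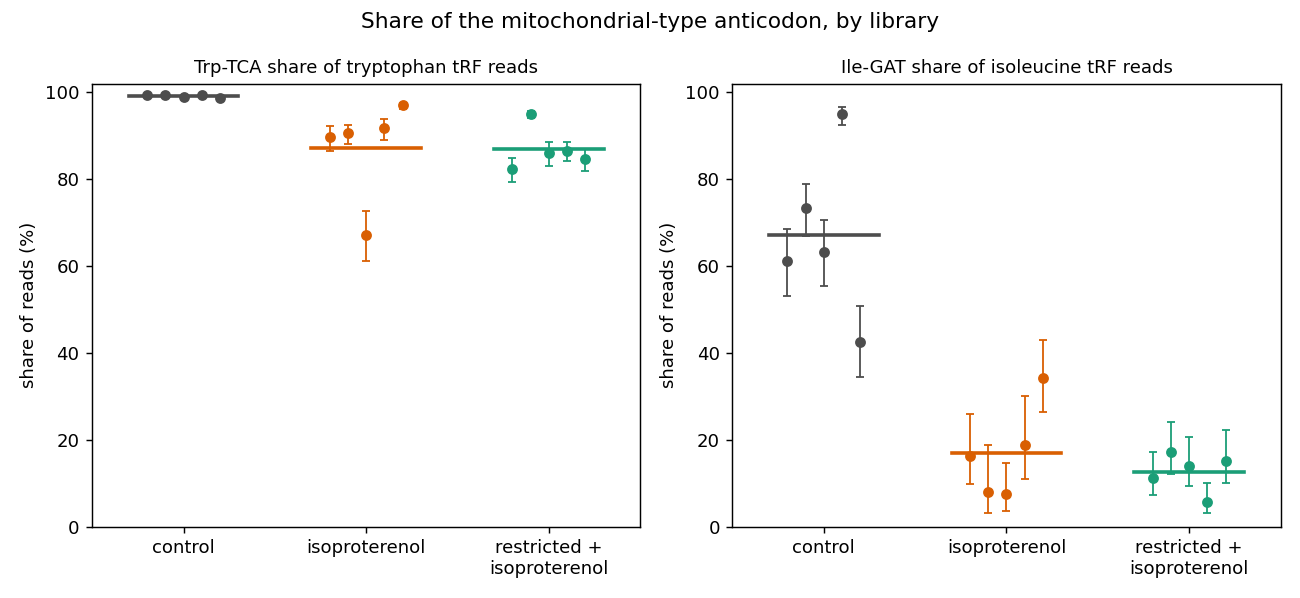
Share of Trp-TCA among tryptophan tRF reads (left) and of Ile-GAT among isoleucine tRF reads (right) in each library, in percent, with 95% Wilson intervals and a line at the group mean. Control libraries lie at 98.7% or more on the left and at 42.4% or more on the right, above all treated libraries in both panels.

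Between the restricted and isoproterenol groups, which both received the drug, no member was called. Of 36 tested, 0 were called between them, as were 0.0% of all 707 tsRNAs (limma). At an unadjusted p under 0.05 there were 8 of the 36 and 116 of the 707 (16.4%). The 8 include tRF-Ile-AAT-027, which passed the minimum for testing only through the isoproterenol group. Over the whole table edgeR with the authors' totals called 1 tsRNA (0.141%), edgeR with TMM factors 10 (1.41%) and DESeq2 25 (3.85%). With the library total as a covariate in limma, 43 of all tsRNAs were called (6.08%), 2 of them members, tRF-Ile-AAT-006 (1.95, adjusted p = 0.0312) and tRF-Trp-CCA-019 (1.38, adjusted p = 0.0363). The median change of the 36 was 0.83 toward the restricted group, beside 0.44 over all tsRNAs, with 31 positive and 5 negative.

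The smallest p for a positive change was that of tRF-Trp-TCA-005, at 2.33 with a 95% interval of 0.59 to 4.08 (limma adjusted p = 0.226). By edgeR with the authors' totals the same fragment was at 0.24. Next came tRF-Ile-AAT-006, at 1.81 (limma adjusted p = 0.237). On the negative side tRF-Ile-AAT-027 was at -2.17, from which nothing is read, and tRF-Trp-TCA-017 at -0.58 (limma adjusted p = 0.669). Abundant TCA fragments had narrower intervals: tRF-Trp-TCA-001 was at 0.37 (-0.64 to 1.38), tRF-Trp-TCA-002 at -0.34 (-1.35 to 0.68) and tRF-Trp-TCA-003 at 0.99 (-0.06 to 2.04). The lack of a call does not show that the groups are alike.

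Over the whole table, falls were more frequent among tsRNAs whose anticodon occurs in the 22 mitochondrial tRNAs, most of which nuclear tRNAs share. With isoproterenol 83 of 435 such tsRNAs fell (19.1%), against 5 of 272 with the other 24 anticodons (1.84%). With tryptophan TCA and isoleucine GAT left out, 72 of 413 fell (17.4%). For restricted against control the counts were 74 of 435 (17.0%), 65 of 413 (15.7%) without these anticodons, and 2 of 272 (0.735%). By comparison 9 of 16 TCA and 2 of 5 GAT fragments fell with isoproterenol, with tRF-Ile-GAT-012, which passed the minimum only through control, among the latter. These lists were compared by counts alone, since fragments of 1 tRNA are not independent.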

How the data were processed

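Small RNA was sequenced from total RNA pretreated to remove modifications that block library construction, and inserts of 14 to 40 nt were size-selected (per the labels' protocols). Cutadapt and edgeR are named without roles, per the submitters' processing notes. For the aligner, tRNA reference and build nothing is stated in the sources used. The deposited values are CPM, reads per 1000000 of a library total. All of them were whole reads (100% within 0.001 reads), which gave the totals. PCR reads are not independent molecules, so intervals and floors cover counting error only.

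Members, lists and tests were chosen with earlier results of these data known. limma 3.58.1 (R 4.3.3; eBayes with trend) was fitted on log2(CPM + 1) with 3 groups in 1 model over 707 tsRNAs (a minimum of 1 CPM in 5 or more of 15 libraries). Fold changes are on that scale, where libraries at 0 weigh heavily. An adjusted p (Benjamini-Hochberg) under 0.05 is a call. Alternatives were median-of-ratios scaling (over 347 tsRNAs), scaling to the listed total, pseudocounts of 0.5 and 5, no filter or a mean of 10 CPM, a replicate block, the 2 groups compared alone, each library left out, and edgeR 4.0.16 and DESeq2 1.42.0 on the recovered reads. edgeR with the authors' totals and the log2 library total as a covariate were added after seeing the data. edgeR with the authors' totals called 356 of 707 tsRNAs with isoproterenol, 1 between the treated groups and 439 in the restricted group against control. Named are the 3 most abundant members of each anticodon and, per comparison, up to 10 called in each direction by size of change, or the 2 with the smallest p where none was called.

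The labels number the rats within groups. That the 5 of a group are separate rats rests on those labels, and p-values measure the spread between these libraries. Every 2 libraries of a group differed by more than sampling noise (chi-square over its degrees of freedom at least 7.52).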

Additional observations from a re-analysis of the deposited data

Results flagged for a closer look

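Of 87 groups of 5 libraries examined (each named member on the log2(CPM + 1) scale, and the shares), 11 had a library whose gap to the nearest other, divided by the range of the group, passed Dixon's critical value of 0.71. Chance passes about 1 in 20 groups of normally distributed values. Where only 1 library is above 0 the ratio is 1 whatever its level, so that rate does not apply there.

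In control, replicate 4, the library with the largest total, was low for tRF-Ile-AAT-006 (ratio 0.729, 0.886 CPM beside 15.7 to 36.6), tRF-Ile-AAT-007 (0.808, 0.886 beside 9.43 to 14.6) and tRF-Trp-CCA-019 (0.851, 5.31 beside 32.9 to 44.6). Control replicate 5 was low for tRF-Ile-GAT-003 (0.741, 113 CPM beside 238 to 309), and control replicate 3 was low for tRF-Ile-GAT-004 (0.794, 0 beside 4.71 to 7.97). In the isoproterenol group, replicate 5, the library with the largest total of that group, was alone above 0 for tRF-Ile-GAT-012, tRF-Trp-TCA-005, tRF-Trp-TCA-006 and tRF-Trp-TCA-010 (ratio 1 each), at 3.89, 36.9, 17.5 and 7.77 CPM. Isoproterenol replicate 3, with the smallest total of all, was low for the TCA share of tryptophan tRF reads (0.754, 67.2% beside 89.6% to 97.0%). In the restricted group replicate 1 was high for tRF-Ile-AAT-021 (0.740, 73.3 CPM beside 40.2 to 47.0). The part of library depth in these values was not tested.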

How the results depend on the processing

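Of the falls called with isoproterenol, 10 of 11 were kept in every alternative that gave a value, and 7 of 9 in the restricted group. The isoproterenol fall not kept was that of tRF-Ile-GAT-012, which passed the minimum only through the control group. Of the rises, 1 of 5 and 1 of 13 were kept. The first was tRF-Ile-AAT-027, which passed the minimum only through the isoproterenol group. Fragments of the other anticodons called higher with isoproterenol numbered 3, and 1 (tRF-Ile-AAT-027) under median-of-ratios scaling, scaling to the listed total, edgeR with TMM factors, DESeq2 and the total as covariate. In the restricted group against control they numbered 10, and 0 under median-of-ratios scaling, edgeR with TMM factors and DESeq2, 1 with the listed total and 5 with the covariate. Fragments of the mitochondrial anticodons called lower there numbered 9, and 14 under median-of-ratios scaling and 15 with edgeR with TMM factors and with DESeq2. Members called there numbered 22, and 14 with the listed total and with the covariate. Between the treated groups the covariate gave 2 calls in place of 0, tRF-Ile-AAT-006 and tRF-Trp-CCA-019. Without tRF-Trp-TCA-001, the most abundant tryptophan tRF, the TCA share in control was 98.6%. Without tRF-Ile-AAT-018, the most abundant isoleucine tRF, the GAT shares were 33.1% with isoproterenol and 23.4% in the restricted group. Counting the tiRNA gave a GAT share of 18.2% in the restricted group.

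Leaving out 1 library at a time gave 14 to 18 members called with isoproterenol (10 to 12 mitochondrial lower, 1 to 4 other higher; 1 without isoproterenol replicate 2 or 3), 0 to 0 between the treated groups, and 17 to 24 in the restricted group (7 to 11 and 7 to 10). TCA shares ran from 99.1% to 99.3%, 84.8% to 92.2% and 84.9% to 88.0%, and GAT shares from 60.0% to 73.2%, 12.6% to 19.3% and 11.5% to 14.4%, in control, isoproterenol and restricted groups. No pairing by replicate number was seen: of 15 same-numbered pairs, 1 had a correlation of deviations over 0.1 (range -0.12 to 0.25). Of 15 libraries, 1 correlated best with its own number. Differently numbered pairs ran from -0.34 to 0.26, so this check cannot exclude that equal numbers share a day or litter. With the replicate block 17 members were called with isoproterenol, 0 between the treated groups and 20 in the restricted group.

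Among single fragments, 870 leave-one-out values and 609 others kept direction and side of the threshold, and 37 and 75 lost the call; for each reversal the cause was not tested. With isoproterenol, under median-of-ratios, listed-total, TMM, DESeq2 and covariate in that order, tRF-Ile-AAT-006 was at -0.34, -0.25, -0.62, -0.56 and -0.50 (and -0.036 to 1.10 when 1 library was left out, the lowest without control replicate 4), tRF-Ile-AAT-021 at -0.22, -0.079, -0.41, -0.37 and -0.22, and tRF-Trp-CCA-019 at -0.44, -0.28, -0.42, -0.40 and -0.44. tRF-Trp-CCA-007 was at -0.11 (median-of-ratios), -0.13 (TMM) and -0.13 (DESeq2), and tRF-Ile-GAT-004 at -0.27 (TMM) and -0.28 (DESeq2). Between the treated groups tRF-Ile-AAT-021 was at -0.00012 (median-of-ratios), -0.042 (DESeq2) and -0.036 to 0.69 with 1 library left out (lowest without isoproterenol replicate 5), tRF-Ile-GAT-002 at 0.13 (edgeR, authors' totals), tRF-Ile-GAT-003 at -0.63 (TMM) and -0.72 (DESeq2), tRF-Trp-TCA-001 at -0.012 (median-of-ratios) and tRF-Trp-TCA-005 at -0.47 (TMM) and -0.52 (DESeq2). In the restricted group against control tRF-Ile-AAT-021 was at -0.22 (median-of-ratios), -0.37 (TMM) and -0.41 (DESeq2). Depth limits the scarce fragments most, since 3 reads are 28.3 CPM in the shallowest library.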
